A study of Drosophila melanogaster with 3 samples.

Results

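Combgap binding was mapped by ChIP-seq in whole Drosophila melanogaster embryos, and the peaks described here lay between genes, away from every annotated start. They were chosen by position alone: the summit lay more than 500 bp from every annotated transcription start site (TSS) and inside no annotated gene. The rule took 920 of the 7913 peaks in the list thresholded by reproducibility, or 11.6%. The other peaks were 3008 distal intronic peaks, 428 distal exonic peaks and 3557 start-site peaks, whose summits lay within 500 bp of a TSS. Positions are on dm6, and TSSs of coding, noncoding and pseudogene transcripts were counted. All samples belonged to 1 group, the fly line cg-GFP, in which the cg gene product ends in GFP at its C terminus, and the antibody recognised GFP. The embryos were 0 to 24 h old, of both sexes, and the chromatin was sonicated to fragments of 200 to 800 bp. There were 3 biological replicates, each with a deposited list of 30000 peaks, beside 1 list from the pooled replicates and the thresholded list. Whole embryos of all embryonic stages mix many cell types, no untagged or treated group was compared, and the sequencing depth is unknown. The replicates carried the same labels except for their numbers, so spread over them covers these 3 samples only.

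Combgap is a DNA-binding protein with zinc fingers that was first studied for its part in limb and optic lobe patterning. It binds runs of alternating G and T and has a role in bringing Polycomb group proteins to Polycomb response elements. Those elements are stretches of DNA, often upstream of developmental genes or far from them, at which Polycomb complexes keep genes silent, and GAGA factor, Pho, Zeste, Spps and Combgap are among the proteins that bind there.

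Stretches from 7 of the 920 peaks, chosen as stated below, show what lay under their summits. All are plus strand, from the release 6 assembly as held by RefSeq, with at least 40 bases on each side of the summit. In the first 4, which are among the 15 highest peaks and hold GTGTGT, capitals mark GTGTGT on either strand, so that ACACAC is marked too.
tara, chr3R:16221532-16221622: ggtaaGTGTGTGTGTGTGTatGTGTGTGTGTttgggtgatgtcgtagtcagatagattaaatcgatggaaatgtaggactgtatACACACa
ben, chrX:13995062-13995142: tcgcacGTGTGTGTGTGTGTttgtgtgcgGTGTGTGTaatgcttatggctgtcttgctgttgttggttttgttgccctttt
Atet, chr2L:4333334-4333419: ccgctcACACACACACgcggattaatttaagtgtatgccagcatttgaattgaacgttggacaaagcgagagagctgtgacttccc
klu, chr3L:11010479-11010559: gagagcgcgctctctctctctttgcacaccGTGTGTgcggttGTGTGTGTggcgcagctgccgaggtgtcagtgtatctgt
The next is also among the 15 highest and has no GTGTGT within 100 bp of the summit, so nothing in it is in capitals.
knrl, chr3L:20621798-20621878: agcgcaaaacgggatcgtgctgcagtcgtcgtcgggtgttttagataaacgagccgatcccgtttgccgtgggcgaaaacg
The last 2 were chosen after their values were seen. They are the highest peak in the gap that holds the most of these peaks, beside CG43245, and the peak with the longest GT run, 41 bases, beside CG11964; capitals mark GTGTGT again.
CG43245, chr3L:10737274-10737389: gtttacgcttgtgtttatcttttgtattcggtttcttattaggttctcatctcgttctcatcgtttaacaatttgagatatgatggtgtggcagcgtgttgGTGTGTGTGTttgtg
CG11964, chr3R:8949438-8949540: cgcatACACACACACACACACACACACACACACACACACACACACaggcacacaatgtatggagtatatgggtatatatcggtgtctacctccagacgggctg
The run of 14 alternating bases at tara was centred 38 bp left of the summit and that at ben 27 bp left of it. At klu a run of 10 bases was centred 6 bp right of the summit.

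The distal intergenic peaks were found again in the replicate lists, from which the thresholded list itself was made, so the overlap is a description. A replicate peak overlapped them by at least 1 bp in 99.9% of cases for replicate 1, 99.7% for replicate 2 and 99.9% for replicate 3, and 916 of 920 were overlapped in all 3. The median distance to the nearest replicate summit was 5, 12 and 10 bp. In all 3 replicates 691 peaks, 75.1%, ranked among the highest 7913, and 16 did so in none. The deposited lists also held close pairs of summits with a fixed direction. Of the 102 neighbouring distal intergenic summits that were 151 to 300 bp apart, 100 had the lower summit at the higher coordinate, and its signal was at the median 43.9% of its neighbour's. The same was seen in 1457 of 1471 such pairs over the whole list. GTGTGT lay within 100 bp of 39.2% of the lower and 73.5% of the higher summits of these distal intergenic pairs. What places the lower summits was not tested. Where values with 1 summit per merged region were computed, they are given beside the results they move most.

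Distal intergenic peaks were lower than the other classes. Signal is the enrichment value that the authors' peak caller gave each peak, and it was compared only inside a list. In the thresholded list the median signal was 688 for distal intergenic peaks, 765 for distal intronic, 780 for distal exonic and 1279 for start-site peaks, and the distal intergenic values ran from 372 to 25617. Of the 920 peaks 64, or 6.96%, were among the 1000 highest, where 12.6% of all thresholded peaks stood. In replicate 1 the median signal of the peaks at those places was 299.8 for distal intergenic, 342 for distal intronic and 579.8 for start-site peaks. In replicate 2 it was 152 for distal intergenic, 171 for distal intronic and 267 for start-site peaks. In replicate 3 it was 248 for distal intergenic, 284 for distal intronic and 494 for start-site peaks, so the order of the classes was the same in each. The ratio of distal intergenic to distal intronic peaks was 0.879 ± 0.010 and that of distal intergenic to start-site peaks was 0.530 ± 0.035 (SD, n = 3). With 1 summit per merged region the mean ratio to start-site peaks was 0.451. Both ratios were under 1 in all 3 replicates, and an exact two-sided sign-flip test on their logarithms gave p = 0.25 for each, the smallest p that 3 replicates allow. In bulk chromatin, binding in fewer cells and less binding per cell cannot be told apart.

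The highest distal intergenic peak lay 4911 bp upstream of 18w, which encodes a receptor of the Toll family, and was the second highest of all 7913 peaks. Its summit was at chr2R:20106600, and its rank was 2 in replicate 1, 2 in replicate 2 and 2 in replicate 3, with signals of 11771, 5043 and 8887. The next was 1331 bp upstream of klu, which encodes a zinc finger transcription factor, at ranks 20, 28 and 15. A pair of peaks lay upstream of tara, a gene of the Trithorax group, 4069 and 3234 bp from its TSS. The farther one ranked 62, 40 and 60, and the nearer one 84, 78 and 108. Among those that followed were peaks nearest to ben, an E2 ubiquitin-conjugating enzyme gene (ranks 66, 69 and 58), and nub, a POU-domain gene of wing development (78, 79 and 77). The peak near the nuclear receptor gene knrl ranked 82, 93 and 97. All replicate ranks of these 15 peaks lay between 2 and 173.

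**Figure D1:**
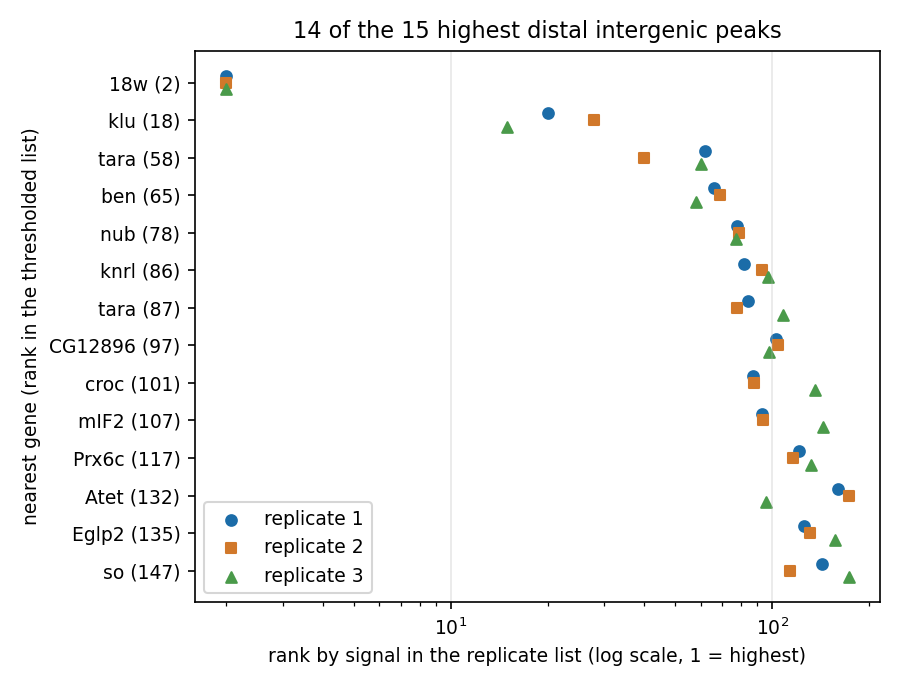
Ranks of 14 of the 15 highest distal intergenic peaks (rows, nearest protein-coding gene with the rank in the thresholded list) in the lists of replicates 1, 2 and 3 (points; log axis, 1 is the highest signal). The peak upstream of 18w stands at rank 2 in all 3 replicates, and every point lies at rank 173 or better.

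Of the other peaks among these 15, the one nearest to croc, a Forkhead gene, ranked 87, 88 and 136, and the one nearest to so, a homeobox gene of eye development, ranked 143, 114 and 173. The peak nearest to the TSS of mIF2, a mitochondrial initiation factor gene, lay in the gap between mIF2 and the Forkhead gene fkh and ranked 93, 94 and 144. Others were nearest to CG12896, the peroxiredoxin gene Prx6c, the ABC transporter gene Atet and Eglp2, an aquaporin family gene. All 15 lay upstream of the nearest protein-coding TSS, 7 of them less than 1 kb from any TSS, and 11 of the 15 held GTGTGT within 100 bp. Over all 920 peaks 630 lay upstream, and the share of distal intergenic sequence on that side was not computed. For 10 of the 15 the nearest gene also had a start-site peak.

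GTGTGT lay within 100 bp of the summit, on either strand, in 618 of 920 distal intergenic peaks, 67.2% (exact Clopper-Pearson 95% interval 64.03% to 70.2%). Among the 72 peaks whose window held no soft-masked base, a mark of repeats in the assembly, the share was 37.5%, against 9.87% of the windows without such a base. GT runs can be marked as repeats themselves, so this filter can remove windows because of the letters counted. That part was not tested. The interval above, like the others given for shares and densities, covers counting error only. For comparison, all distal intergenic sequence was divided into 177339 windows of the same 201 bp, and 12.2% of these held GTGTGT, whether or not a peak was there; 0.506% held a thresholded summit. The share was 66.9% in distal intronic and 58.5% in start-site peaks. When the rule was applied to the 7913 highest peaks of each replicate list, 66.7%, 66.0% and 65.2% of distal intergenic peaks held GTGTGT, against 66.6%, 64.4% and 65.0% of distal intronic peaks. The difference was 0.661 ± 0.847 percentage points (SD, n = 3; exact sign-flip p = 0.25), smaller than its spread. Its value moved in both directions with the settings. It was -0.934 with windows of 250 bp, -2.27 in the upper 50% of the lists by signal and 0.0985 with 1 summit per merged region. It was 2.70 and 3.87 with a distance of 1000 and 2000 bp in the rule, and 6.49 in windows with no soft-masked base. Few peaks have such a window: in the thresholded list 7.83% of distal intergenic and 7.08% of distal intronic peaks. Against start-site peaks, at 58.0%, 57.3% and 57.0%, the difference was 8.53 ± 0.275 percentage points (exact sign-flip p = 0.25, the smallest possible). It was 4.12 with 1 summit per merged region, 3.65 in the upper 50% of the lists by signal and 0.558 with windows of 250 bp.

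The letters were concentrated at the summit. Of 920 distal intergenic peaks 801 had GTGTGT within 500 bp, and in these the median distance was 35 bp. Within 25 bp of the summit it lay in 341 peaks. Over the central 50 bp 8.56% of positions were inside GTGTGT, against 0.556% of positions 400 to 500 bp away and 0.537% over all distal intergenic windows. The same central value was 8.11% in distal intronic and 5.66% in start-site peaks. All 3 classes had a smaller shoulder at lower coordinates. The profile takes in the lower summits of the close pairs described above, whose higher neighbours mostly lie on that side, 151 to 300 bp away. In distal intergenic pairs 73.5% of those higher summits held GTGTGT. The part of the pairs in the shoulder was not tested.

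**Figure D2:**
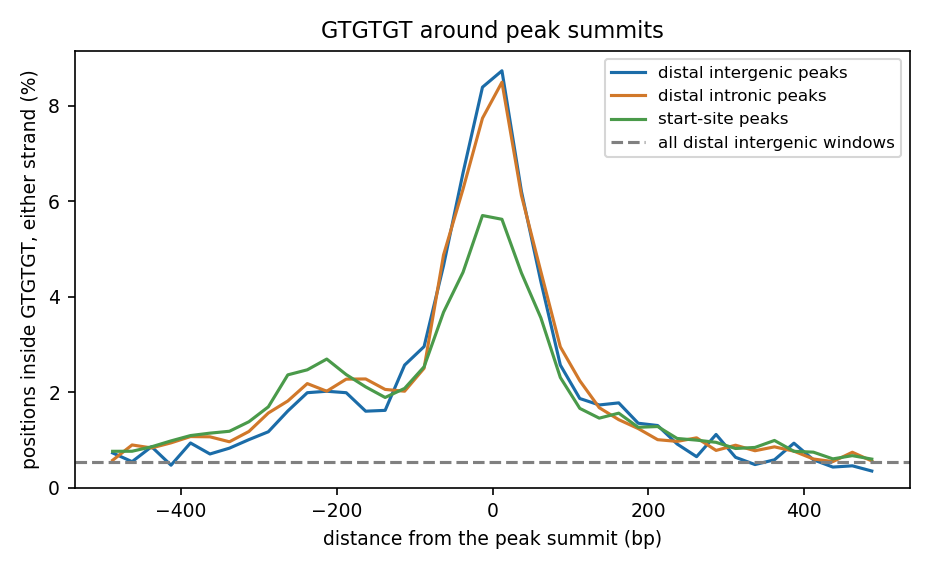
Percentage of positions inside GTGTGT on either strand (y) by distance from the summit in bp (x, bins of 25 bp, negative is the lower coordinate), for distal intergenic, distal intronic and start-site peaks; the dashed line is the mean of all distal intergenic windows. Distal intergenic and distal intronic peaks have nearly the same central height, start-site peaks a lower one.

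How often distal intergenic sequence was bound differed by the length of its longest GT run, a stretch of alternating G and T (or A and C) counted from either letter. Of windows whose run was under 6 bases 0.175% held a thresholded summit. The share was 1.15% for runs of 6 to 9 bases, 7.41% for 10 to 14, 8.09% for 15 to 19 and 12.5% for 20 to 29 bases. In the highest peaks of each replicate list the last share was 11.5%, 10.02% and 10.02%, and that for runs under 6 bases was 0.171%, 0.179% and 0.180%. Neighbouring classes from 10 bases up had overlapping intervals. Windows with a run of 30 bases or more numbered 52, and 4 of them held a summit (7.69%, interval 2.14% to 18.5%). In every class of run length most windows were without a thresholded summit. From the peaks' side, 221 of the 920 had no run of 6 bases and 80 had one of 20 bases or more.

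**Figure D3:**
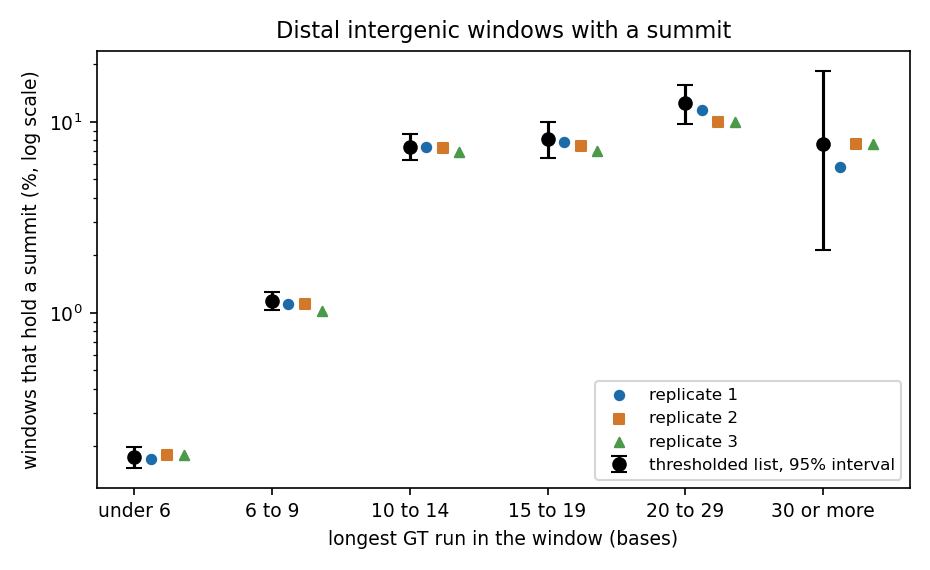
Percentage of 201-bp windows of distal intergenic sequence that hold a summit (y, log axis) by the longest GT run in the window (x, bases). Black points are the thresholded list with exact 95% intervals; small points are the 7913 highest peaks of each replicate; shares run between 0.175% under 6 bases and 12.5% at 20 to 29 bases.

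Longer runs did not go with ever higher signal. The median rank of distal intergenic peaks was 5498 where the run was under 6 bases, 4528.5 for 6 to 9, 4168 for 10 to 14, 5162.5 for 15 to 19 and 5731 for 20 to 29 bases, where 1 is the highest. Each replicate put the class of 10 to 14 bases first, at median ranks of 4372, 4452 and 4576. Distal intergenic peaks with GTGTGT had a median signal of 326, 157 and 263 in the 3 replicates, against 277, 143 and 227 for those without it. The ratio was 1.14 ± 0.043 (SD, n = 3, exact sign-flip p = 0.25, the smallest possible). These ranks and medians include the lower summits of close pairs, which held GTGTGT in 39.2% of cases, against 73.5% for the higher summits. With 1 summit per merged region neither the ranks by run length nor this ratio was computed, so the part of the pairs in them was not tested.

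GAGAG, the core letters for GAGA factor, lay in 365 distal intergenic peaks, 39.7% (36.5% to 42.9%), and in 20.8% of all distal intergenic windows. It was in 42.9% of distal intronic and 41.2% of start-site peaks. Peaks without GTGTGT held it in 47.0% of cases and those with GTGTGT in 36.1%. Among the 64 distal intergenic peaks in the top 1000, 46 held GAGAG, 48 held GTGTGT and 5 held neither. Over all 920 peaks 160, or 17.4%, held neither. The longer GA run GAGAGAGA, which contains GAGAG, lay in 8.37% of peaks and 0.927% of windows.

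TGAGTG, the letters for Zeste, lay in 27.0% of distal intergenic peaks (24.1% to 29.9%) and 9.21% of windows. It was in 31.6% of peaks with GTGTGT and 17.5% of those without. TGAGTG is TGTGTG with an A in place of a T, so an interrupted GT run can hold it. The part of such runs in these shares was not tested. GGGCGG, for Spps, lay in 11.3% of peaks and 6.17% of windows, and the E-box CACGTG in 4.46% and 2.22%. Applied to each replicate list, the rule gave GGGCGG in 10.9% ± 0.172 of distal intergenic, 8.58% ± 0.563 of distal intronic and 7.11% ± 0.280 of start-site peaks (SD, n = 3 each). GCCAT, the core of the Pho site, lay in 36.6% of peaks, close to the 35.4% of all windows.

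Other letters were found as often as in the windows or less often. TAATTA, a core of homeodomain sites, lay in 6.85% of distal intergenic peaks and 14.2% of windows, and AAAAAA in 25.7% and 34.7%. CTTTGAT, for TCF, lay in 2.28% and 3.89%, and CAGGTA, for Zelda, in 3.59% and 4.29%. TATCGATA, the DRE letters, lay in 0.217% of distal intergenic peaks and 0.443% of windows, against 1.97% of start-site peaks. All motifs were sought on both strands. Base composition differed too, the median GC content being 46.8% in windows on distal intergenic summits and 41.3% in all distal intergenic windows. Its part in the shares was not tested.

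Distal intergenic peaks were densest near genes and richest in GT runs far from them. The median distance to the nearest TSS was 2651.5 bp, 259 peaks were over 5 kb and 119 over 10 kb away. Per Mb of distal intergenic sequence there were 55.9 peaks at 0.5 to 1 kb from the nearest TSS, 44.5 at 1 to 2 kb, 33.4 at 2 to 5 kb, 19.5 at 5 to 10 kb and 9.34 beyond 10 kb. The share with GTGTGT was 57.0%, 62.6%, 69.3%, 71.4% and 78.2% over the same 5 steps. All windows at those distances held GTGTGT in 11.6%, 13.1%, 13.6%, 13.2% and 10.4% of cases. In the replicates' own lists the share was higher beyond 10 kb than at 0.5 to 1 kb by 19.95, 22.1 and 19.5 percentage points, or 20.5 ± 1.42 (SD, n = 3). These 2 steps were set against each other after the values by distance were seen, so no test is given. Signal went the other way: 23 of 158 peaks at 0.5 to 1 kb and 4 of 119 beyond 10 kb were among the 1000 highest. Density also differed by the length of the gap between neighbouring genes. The 72 gaps over 50 kb held 8.02 Mb of distal intergenic sequence and 3.49 peaks per Mb, against 22.6 per Mb in gaps of 20 to 50 kb. The part of these longest gaps in the density beyond 10 kb was not tested.

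**Figure D4:**
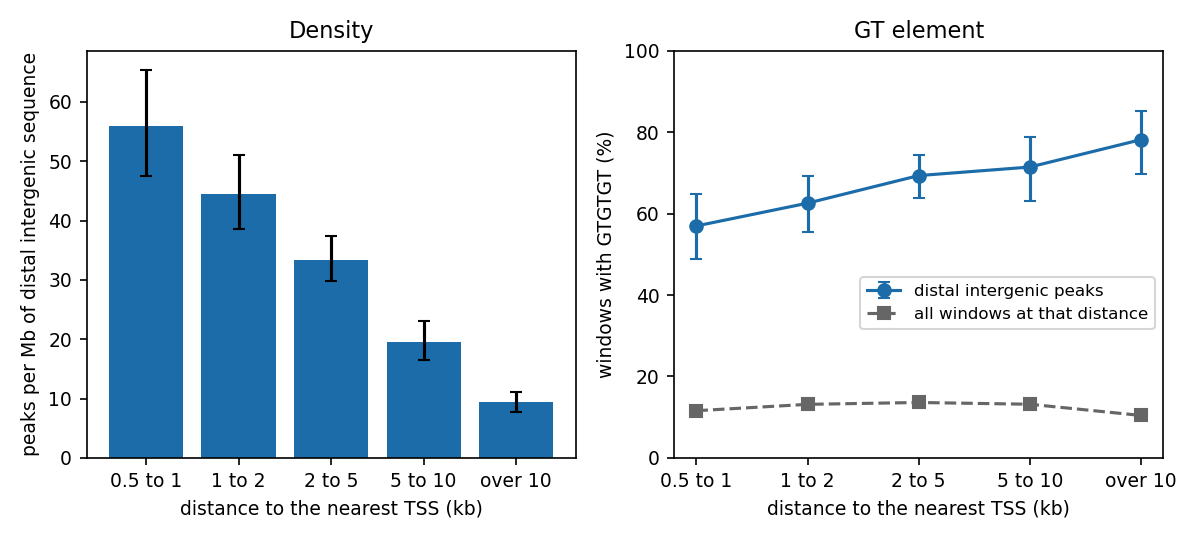
Left, distal intergenic peaks per Mb of distal intergenic sequence (y) by distance to the nearest TSS in kb (x), with exact Poisson 95% intervals. Right, percentage with GTGTGT within 100 bp (y) for the peaks, with exact binomial 95% intervals, and for all 201-bp windows at the same distances; the peaks go from 57.0% to 78.2% while the windows stay between 10.4% and 13.6%.

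The peaks farthest from any TSS were mostly low. The peak nearest to CG40498 was 48750 bp away and ranked 8989, 12011 and 6336 in the replicates, and its 3 ranks were far apart. The peak 37005 bp from bab1, a leg patterning gene, ranked 5547, 6375 and 5724. The peak 34781 bp from AOX4, an aldehyde oxidase gene, ranked 4655, 6575 and 5653. Both others in this group of 5 were nearest to CG43245, at 37114 and 34611 bp, and the second of them ranked 304, 457 and 335. All 5 held GTGTGT. Close to the limit of the rule, 2 peaks lay 507 to 508 bp from a TSS, with signals of 512 and 1343, and 4 peaks in no gene lay 493 to 500 bp away, with signals between 395 and 944.

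Most distal intergenic peaks lay upstream of the nearest protein-coding TSS, 630 of 920, and 290 lay downstream, beyond the gene's end. The same split was not computed for all distal intergenic sequence, so these counts alone show no preference for either side. For 307 the nearest TSS of any kind was not protein-coding. In all 564 protein-coding genes were nearest to at least 1 peak, 4.04% of 13945, and 184 of them to more than 1. The nearest protein-coding gene had a start-site peak of its own in 382 of 920 cases, 41.5% (38.3% to 44.8%), while 18.3% of all protein-coding genes had one and 13.7% of distal intergenic bases lay nearest to such a gene. For distal intronic peaks the share was 67.1%. By replicate it was 41.5%, 44.1% and 42.4% for distal intergenic peaks, against 67.6%, 68.3% and 67.6% for distal intronic peaks. The difference was -25.2 ± 0.926 percentage points (SD, n = 3; exact sign-flip p = 0.25, the smallest possible). The genes differed in their number of TSSs as well, with a mean of 1.57 for genes nearest to distal intergenic and 2.14 for genes nearest to distal intronic peaks, and the part of this in the difference was not tested. The share of distal intronic bases nearest to a gene with a start-site peak was not computed, so the difference lacks that background. Counting either flanking protein-coding gene instead of the nearest, the share for distal intergenic peaks was 66.0%.

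Genes that pattern the embryo and its appendages were among the nearest genes. The lists are given as counts beside the 4.04% of all protein-coding genes, and, since lists differ in how much intergenic sequence lies nearest to their genes, as peaks per Mb of that sequence. Of 23 genes for appendage and disc patterning 13 were nearest to a distal intergenic peak, with 27 peaks between them, or 74.2 per Mb (exact Poisson 95% interval 48.9 to 108), against 25.4 per Mb over all distal intergenic sequence. The genes were Dll, Lim1, al, ap, bab1, bab2, disco, disco-r, mirr, nub, salm, so and toe. The homeobox gene mirr had 6 peaks, and disco, a zinc finger gene, had 5, the best of which ranked 416, 532 and 261. By replicate 60.9%, 52.2% and 56.5% of this list was nearest to a peak, against 3.90%, 3.76% and 3.65% of all protein-coding genes.

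Of 16 pair-rule and segment polarity genes 7 were nearest to a peak, at 60.5 peaks per Mb (32.2 to 103). The Hedgehog ligand gene hh had 1, 1709 bp upstream at ranks 311, 267 and 342, and its receptor gene ptc had 4, the best of them 2002 bp upstream at ranks 1547, 1511 and 1393. The engrailed relative inv had 1 peak at ranks 1264, 1416 and 1417. Of 14 gap, head and terminal genes 5 were nearest to a peak, at 48.1 per Mb (21.99 to 91.3): the homeobox gene oc had one 18189 bp downstream of its TSS at ranks 235, 237 and 331, and slp2, a Forkhead gene, one at 485, 348 and 531. Of 18 dorsoventral and mesoderm genes 6 were nearest to a peak, at 58.1 per Mb (23.4 to 120), with best ranks of 2367 at slou and 3856 at twi in the thresholded list. Of 10 homeotic and cofactor genes 3 were: Antp with 3 peaks, Abd-B and Dfd with 1 each, none better than rank 3247, although all 10 had a start-site peak. Their density was 62.8 per Mb (20.4 to 147). The intervals of the gap, dorsoventral and homeotic lists included the 25.4 per Mb of all distal intergenic sequence.

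Of 12 T-box, GATA and Forkhead genes 4 were nearest to a peak, at 43.96 per Mb (16.1 to 95.7, which includes 25.4), among them croc with 3 and the GATA gene grn with 1 at ranks 972, 1196 and 1126. Of 21 neural genes 5 were, at 56.2 per Mb (25.7 to 107), among them the POU gene pdm2 at ranks 1096, 879 and 1207 and the homeobox gene Dr with 4 peaks. Of 23 genes for signalling ligands and receptors 5 were, at 51.6 per Mb (28.2 to 86.5), and 11 of the 14 peaks were at the Toll family genes 18w (3), Toll-6 (4) and Tollo (4). Of 25 Polycomb and Trithorax group genes 3 were, with 13 peaks in 0.0368 Mb, or 353 per Mb (188 to 604): Su(z)2, which encodes a relative of the PRC1 subunit Psc, with 6, psq, a BTB protein gene, with 4 and the PRC1 subunit gene ph-d with 3. The interval takes these 13 peaks as independent, although they were nearest to only 3 genes. Density with 1 summit per merged region was not computed. The best peak at Su(z)2 ranked 979, 1043 and 886, that at psq 1906, 1688 and 1881, and that at ph-d 1966, 1671 and 2267. Of 25 genes of cell adhesion and axon guidance 2 were, caps and robo2, at 24.5 per Mb (5.05 to 71.6). Of 20 ribosomal protein genes none was in the thresholded list, and of 36 odorant receptor genes 1 was, Or67d, from 48933 bp away.

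The peaks were spread unevenly over the gaps between neighbouring genes. Of 6516 gaps with distal intergenic sequence 554, or 8.5%, held at least 1 peak. The gap between NijA, the Ninjurin A gene, and CG43245, 75.05 kb on 3L, held 16, of which 13 had GTGTGT. Its highest peak lay 40.4 kb from NijA at ranks 304, 457 and 335, and another lay 43.5 kb from it at ranks 833, 866 and 1043. Between Su(z)2 and CG13323, 36.8 kb on 2R, there were 15 peaks, 10 with GTGTGT. The highest stood 31.0 kb from Su(z)2 and ranked 937, 714 and 961, and the next, at 8.0 kb, was the peak at ranks 979, 1043 and 886. A gap of 20.9 kb on 2L between RFeSP, a gene of the mitochondrial respiratory chain, and chinmo, a BTB zinc finger gene of neuronal timing, held 8 peaks and was bounded by noncoding RNA genes on both sides. Of these 8 peaks 5 had GTGTGT, and the highest, without it, ranked 1201, 1136 and 1068. With 1 summit per merged region these 3 gaps held 12, 12 and 6 peaks.

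**Figure D5:**
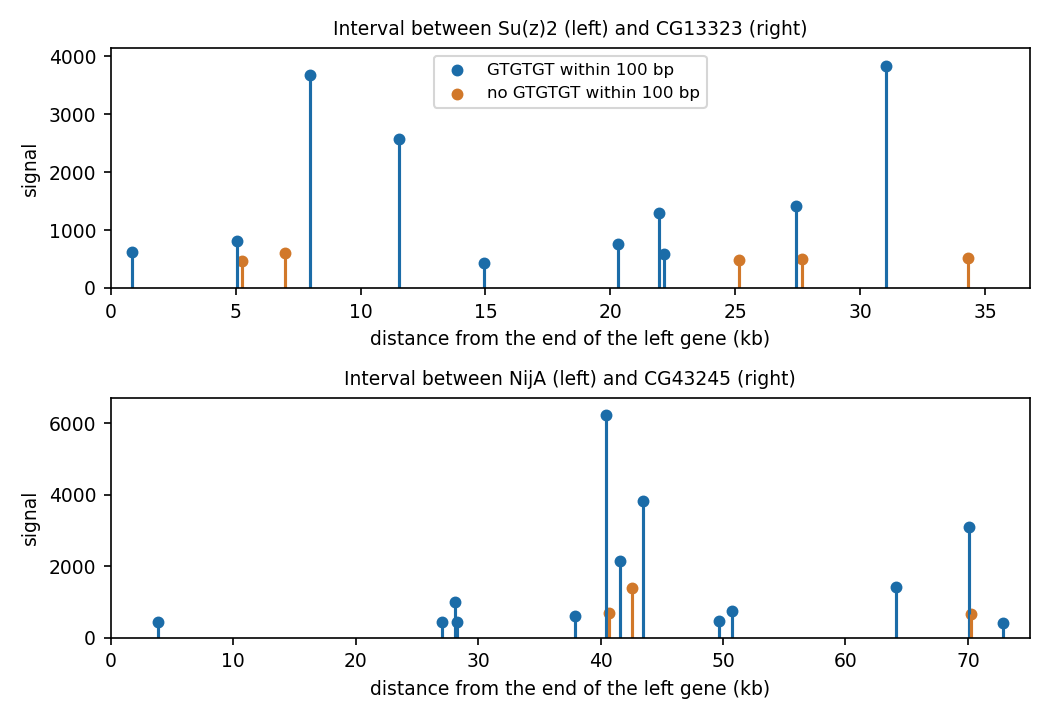
Distal intergenic peaks in the gaps between Su(z)2 and CG13323 (top, 15 peaks) and between NijA and CG43245 (bottom, 16 peaks): distance from the end of the left gene in kb (x) and signal in the thresholded list (y), coloured by GTGTGT within 100 bp of the summit. Peaks lie along most of the upper gap and in groups with long empty stretches between them in the lower gap. The 3 highest peaks of each gap hold GTGTGT.

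The next gaps in number of peaks were 2 with 7 and 7 with 6 peaks. Those with 7 lay between CG8635 and ptc and, bounded on one side by a noncoding RNA gene, between RYBP and Ppa. Named by the nearest protein-coding gene on either side, those with 6 lay between CG13321 and Psc, COX7AL2 and CG31668, lola and psq, caup and mirr, Antp and Sodh1, vvl and Prat2, and en and tou. With 1 summit per merged region these 9 gaps held between 3 and 6 peaks. They were named after their peaks were counted. By nearest protein-coding TSS the genes with the most peaks were CG43245 with 14, CG13323 and CG6163 with 9 each, CheA75a with 8, chinmo with 7, and CG13321, Su(z)2 and mirr with 6 each. CG43245, CG13323 and CheA75a had no start-site peak and the other 5 had one.

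Gaps between divergent genes, which start at both ends, held 37.9 peaks per Mb of distal intergenic sequence (33.6 to 42.6), tandem gaps 24.6 and convergent gaps 20.6. The divergent density in the replicates' own lists was 37.9, 35.9 and 35.6, the tandem 23.8, 24.4 and 22.6 and the convergent 19.2, 19.7 and 19.6. Distance to the nearest TSS differs between these gaps. More than 2 kb from any TSS the densities were 25.5 ± 0.957 in divergent, 17.6 ± 0.596 in tandem and 17.3 ± 0.188 in convergent gaps (SD, n = 3 each). The divergent value stayed above both others, and the other two differed by less than the spread of the tandem value.

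By chromosome the density ran from 16.3 peaks per Mb on 4, where there were 4 peaks (4.44 to 41.8), to 28.3 on 3R (24.7 to 32.4). The X had 141 peaks, 26.9 per Mb (22.6 to 31.7), and the autosomes 779, 25.1 per Mb (23.4 to 26.9). In the replicates' own lists the X had 25.9, 24.6 and 24.8 per Mb, against 24.4, 24.7 and 23.4 on autosomes, an X to autosome ratio of 1.04 ± 0.036 (SD, n = 3; exact sign-flip p = 0.5) that was above 1 in 2 of 3 replicates. With a distance of 1000 bp in the rule it was 0.964, and with 2000 bp 0.983. GTGTGT lay in 75.2% of X peaks (67.2% to 82.1%), against 65.7% of autosomal peaks (62.3% to 69.1%), while 13.4% of X windows and 11.99% of autosomal windows held it. In the replicates' own lists the X share was higher by 9.74, 8.94 and 4.72 percentage points, or 7.80 ± 2.70 (exact sign-flip p = 0.25, the smallest possible).

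The pooled list held many more distal intergenic peaks than passed the threshold. Of 5247 there 920, or 17.5%, were kept, against 22.3% of distal intronic and 43.2% of start-site peaks. Those not kept had GTGTGT in 39.0% of cases, below the 67.2% of those kept and above the 12.2% of all windows. Among the highest peaks of the pooled list, distal intergenic peaks held GTGTGT in the same 67.2% of cases. Their differences from distal intronic and start-site peaks, 0.319 and 8.67 percentage points, were also those of the thresholded list. In the thresholded list the lowest signal was 372 in every class of peaks. The equal values at the top of the pooled list are thus no second support for those of the thresholded list. The kept shares are likewise not a result separate from signal. The lists were not compared peak by peak. On the X there were 164 peaks not kept per Mb, against 112 on autosomes. Each replicate list had a like number in all, 5223, 5086 and 5053 distal intergenic peaks among its 30000.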

How the data were processed

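The authors deposited 5 narrowPeak lists on dm6, per the file headers and labels: 1 per replicate, 1 pooled and 1 thresholded by IDR, all against 1 shared control alignment. Neither the aligner and caller nor the IDR threshold is named in these sources. The signal of each peak and its summit offset, a score in bp, were deposited by the authors' caller; the deposited −log10 q values stood at 1 ceiling in the thresholded list and ranked nothing.

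Genes and 23581 TSSs came from Ensembl release 115; 5809 transposable elements were not counted as genes. Each peak took the replicate peak with the nearest summit among those overlapping by at least 1 bp; close summits can share one. Motifs were sought within 100 bp, both strands. Calculations ran in pandas 2.3.3, numpy 2.4.6 and scipy 1.17.1 under Python 3.11.15, with matplotlib 3.10.9 for plots, and were tested on simulated data. Named peaks were the 15 highest, the 5 farthest, the 8 genes and 3 gaps with most peaks (ties by rank) and the best 3 genes per list. The members, 12 gene lists and 12 motifs were chosen with earlier results of these data known. Dl matched no gene symbol and was left out. The gene nearest to 1 of the 15 highest peaks is not reported here.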

Additional observations from a re-analysis of the deposited data

How the results depend on the processing

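Pairing samples between groups was not possible because the labels give 1 group. Classes of peaks were compared inside each replicate, so the sign-flip tests paired the classes by replicate. The number of peaks was 559 with a distance of 2000 bp and 333 in the upper 50% of the list by signal, and it was between 762 and 1214 under the other 4 rules tried. The GTGTGT share of 67.2% was 52.9% and 81.0% with windows of 50 and 250 bp, 71.7% at 2000 bp, 70.9% with 1 summit per merged region, 71.8% in the upper 50%, and 37.5% over the 72 peaks whose window held no soft-masked base. The share with a start-site peak at the nearest gene was 52.5% with start-site peaks within 1000 bp and 66.0% for either flanking gene. Overlap at 50% of a peak's length was 96.6%. Against distal intronic peaks, the GTGTGT difference was -0.934 with windows of 250 bp, -2.27 in the upper 50% and 0.0985 with 1 summit per merged region. It was 2.70 and 3.87 at 1000 and 2000 bp and 6.49 without soft-masked bases, where few peaks remained. The ratio of X to autosomal density was 0.964 and 0.983 at 1000 and 2000 bp. Leaving out each replicate gave signal ratios of 0.874 to 0.883 and 0.510 to 0.543, GTGTGT differences of 0.173 to 0.926 and 8.43 to 8.69, and X ratios of 1.03 to 1.06. None of these 5 changed direction, nor did the difference from distal intronic peaks in the share with a start-site peak at the nearest gene. Counting transposable elements as genes, chosen after the data were seen, gave 902 peaks. Of 143 values for other motifs 107 stayed within their interval, and of 26 for gene lists 24 did. A shorter or longer window lowers or raises a motif share by itself. Without the windows of 50 and 250 bp and the filter on soft-masked bases, 106 of 110 motif values stayed. The depth is unknown, so a peak below the threshold may reflect depth.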
